A study of Schizosaccharomyces pombe
Saccharomyces cerevisiae with 24 samples.

Results

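The comparison described here is that of total RNA from yeast cells that received 4-thiouracil (4sU) with total RNA from cells that did not, after 60 min in galactose. Its members are 4 of the 24 libraries in the series, chosen by their labels as the total fraction at 60 min, with 2 libraries from cells with 4sU for 6 min and 2 from cells without. The cells were a diploid strain of the W303 background of Saccharomyces cerevisiae, grown in rich medium with raffinose before galactose was added. Each culture was divided into aliquots and 4sU was added to one of them, so the libraries of a replicate number were taken to share a culture. What the other aliquot received is not given in the sources used here. All 4 samples also contained S. pombe cells that had themselves been labeled with 4sU, mixed in before RNA was isolated, and their reads set the scale between libraries.

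4sU is a uracil analog that yeast cells take up and build into the RNA they are making. A short pulse marks new transcripts with a thiol group, by which they can be pulled out of the total RNA. The measurement assumes that the pulse itself leaves the RNA of the cell as it was, and in this series the total RNA of pulsed and unpulsed aliquots can be set side by side for every gene. In human cells the related nucleoside 4-thiouridine is known to inhibit ribosomal RNA processing at high doses. Yeast ribosomal RNA is made as one long precursor in which external and internal transcribed spacers, ETS and ITS, flank the mature RNAs, and the spacers are cut away and degraded as ribosomes are built.

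Few transcripts differed between pulsed and unpulsed cells beyond the spread of the libraries. Of the 6069 genes tested, 78 passed an adjusted p under 0.05 (1.29% of those tested), 41 of them higher with 4sU (0.676%) and 37 lower (0.61%), and 466 (7.68%) had an unadjusted p under 0.05. Nuclear reading frames made up 97.4% of the calls and 96.9% of the genes tested. The median log2 fold change over all genes was 0.07. Among the 3502 genes that averaged 50 or more normalized counts over the 4 libraries, 83.8% lay within 0.5 of 0 on the log2 scale and 96.7% within 1, and the median standard error of a fold change was 0.37. No called gene had changed by less than 1.28 on the log2 scale. Of these better measured genes, 53 had an estimate beyond 1 on the log2 scale and did not pass the test, so changes of that size were often not detectable with 2 libraries per group.

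The count of genes depended on the libraries and on the model, while the calls did not turn. With the replicate number as a block, the same test called 127 genes, 73 higher and 54 lower, and all 78 were among them. Leaving out either library without 4sU, or replicate 1 with 4sU, gave 37 calls each, and leaving out replicate 2 with 4sU gave 28. In all 4 of these fits 19 of the 78 genes were called, 16 higher and 3 lower. DESeq2 with its own size factors called 103 genes higher and 150 lower, so that 40.7% of the calls were higher in place of 52.6%.

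**Figure D1:**
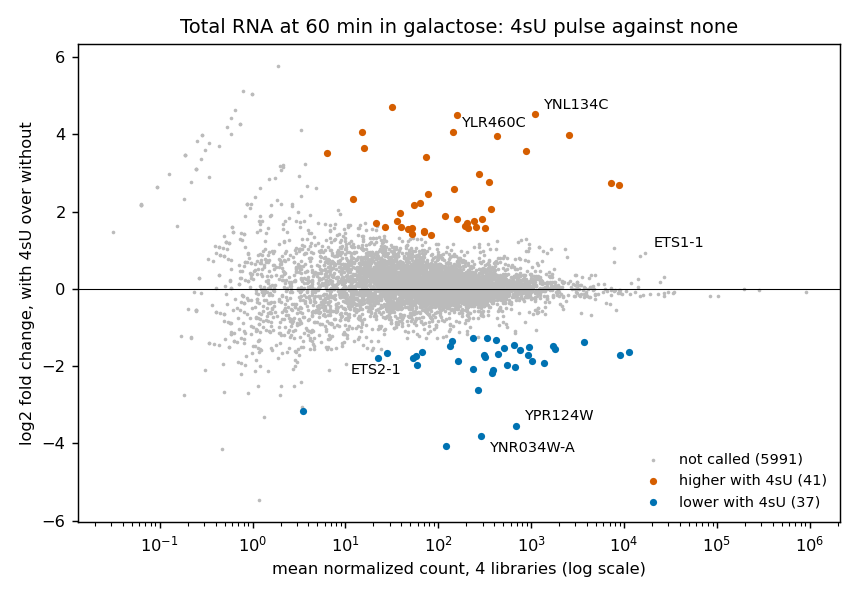
Log2 fold change in total RNA with 4sU over without at 60 min (vertical axis) against the mean normalized count over the 4 libraries (horizontal axis, log scale), one point per gene. The 41 genes called higher are orange, the 37 called lower are blue and the 5991 not called are grey, and all but 2 of the calls had a mean of at least 10.

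The 4 libraries held 4744186 and 5725714 raw counts without 4sU and 25744071 and 5510136 with 4sU, in replicates 1 and 2. After division by the S. pombe reads over 2000000, which gives the normalized count used below, their totals were 3.50 and 3.19 M without 4sU and 3.23 and 3.37 M with 4sU, where M stands for 1e6 normalized counts. The groups thus overlapped in the amount of yeast RNA per S. pombe read. The sum over nuclear reading frames was 1.46 and 1.22 M without 4sU and 1.31 and 1.47 M with it. The pairs of libraries differed in direction, with a median log2 ratio of 4sU over none of -0.13 in replicate 1 and 0.28 in replicate 2. Replicates correlated at a Pearson's r of 0.978 without 4sU and 0.984 with 4sU across genes, which are not independent replicates. Thinning the deepest library to the S. pombe total of its replicate, an alternative chosen after seeing the data, gave 73 calls, all among the 78.

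The files identify protein-coding genes by systematic identifiers and do not pair them with gene names, so the 2 leading identifiers in each direction are given as they stand. They were chosen by the size of the fold change among called genes that averaged 50 or more normalized counts and moved the same way in both pairs of libraries. In this naming scheme the second letter gives the chromosome, the third the arm and the letter after the number the strand. YNL134C lies on the left arm of chromosome XIV on the Crick strand. It had 99.5 and 83.1 normalized counts in the libraries without 4sU, and 1940 and 2248 in those with 4sU. Both pulsed libraries stood far above both controls. The mean of the pulsed libraries was 22.9-fold higher, with a log2 fold change of 4.52 ± 0.44 (SE) and an adjusted p of 6.49e-21.

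YLR460C, on the right arm of chromosome XII on the Crick strand, had a low level without the pulse, against a control median of 66.0 over all genes tested. It had 16.2 and 16.2 normalized counts without 4sU, and 193 and 349 with 4sU. Its log2 fold change was 4.05 ± 0.44 (SE) with an adjusted p of 3.46e-17. The controls were alike while the pulsed libraries differed from each other, and the groups did not overlap.

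YNR034W-A, on the right arm of chromosome XIV on the Watson strand, had 501 and 572 normalized counts without 4sU and 39.8 and 36.1 with 4sU. Its level was 14.1-fold lower with the pulse, at a log2 fold change of -3.81 ± 0.41 (SE) and an adjusted p of 3.96e-17. YPR124W, on the right arm of chromosome XVI on the Watson strand, had 1138 and 1398 normalized counts without 4sU and 90.5 and 129 with 4sU. It was 11.6-fold lower, at a log2 fold change of -3.54 ± 0.41 (SE) and an adjusted p of 6.93e-15. For both transcripts the pulsed libraries lay below the controls with no overlap. All 4 identifiers were called in the same direction under all 13 alternatives that were run.

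The labeled and unlabeled fractions of the same time point were read beside these differences as a description. Their scale cannot be set against that of total RNA, since the pull-down also enriched labeled S. pombe RNA, and no test was made of them. YNL134C had 109 and 129 normalized counts in unlabeled RNA without 4sU and 78.0 and 132 with 4sU, so this fraction overlapped between the groups. In labeled RNA it had 26878 and 36229 normalized counts with 4sU, against a background of 18.1 and 17.1 in the pull-down without 4sU. YLR460C likewise had 18.1 and 26.4 normalized counts in unlabeled RNA without 4sU and 14.4 and 15.3 with it, and 1846 and 3060 in labeled RNA with 4sU. Over all genes tested, the median log2 ratio of 4sU over none in unlabeled RNA was -2.73, so that both identifiers lay above the median gene in this fraction as well.

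The transcripts that fell in total RNA lay below the median gene in unlabeled RNA, which was itself 6.64-fold lower with 4sU. YNR034W-A had 324 and 697 normalized counts in unlabeled RNA without 4sU and 6.355 and 16.6 with 4sU, a 44.4-fold lower mean. YPR124W had 987 and 2845 without 4sU and 58.9 and 72.6 with 4sU, a 29.1-fold lower mean. In labeled RNA with 4sU they had 142 and 122, and 400 and 651 normalized counts, above backgrounds of 23.9 and 20.0, and 106 and 133. Both were thus detected above background in the RNA made during the pulse.

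The groups of called genes differed in their level in the controls, and in the opposite order in the pulsed libraries. The 41 genes higher with 4sU had a median of 38.1 normalized counts in the controls, against 66.0 over all genes tested, and 11 of them had a mean under 50 over the 4 libraries. Their median log2 fold change was 2.08, 21 exceeded 4-fold and 11 exceeded 8-fold. The 37 genes lower with 4sU had a control median of 596 normalized counts. With 4sU the medians were 188 for the 41 genes, 145 for the 37 and 71.4 over all genes tested. The 37 genes had a median log2 fold change of -1.72, and 9 of them exceeded 4-fold. These values belong to the contrast that chose the genes and are a description. The share of genes called rose with the level, from 0.201% of the 993 genes with a mean under 10 to 4.20% of the 262 with a mean of at least 1000. The median standard error was 0.905 in the former and 0.380 in the latter, so changes were harder to detect at low levels. For the 2070 genes with a mean from 50 to 200 it was 0.376, and 1.11% were called.

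Summed over the 41 genes, the normalized count was 6752 and 6381 without 4sU and 40126 and 49036 with 4sU, which was 0.464% and 0.522% of all nuclear reading frame counts in the controls and 3.06% and 3.35% in the pulsed libraries. Summed over the 37 genes, it was 64322 and 58215 without 4sU and 17551 and 20557 with 4sU. In unlabeled RNA the median log2 ratio of 4sU over none was -1.64 for the 41 genes and -5.27 for the 37 genes. Over all genes tested it was -2.73. The calls did not use this fraction, but its libraries were taken to come from the same aliquots as the total libraries. It is thus not separate support for the calls. Labeled RNA has been removed from this fraction, and the 37 genes lay further below 0 than the median gene while the 41 lay nearer to it.

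Replicates did not always stand together. In 39 of the 41 and 35 of the 37 genes, both pulsed libraries lay on one side of both controls. Over all genes tested, both pulsed libraries lay above both controls in 25.7% and below them in 17.5%. In the 4 other called genes the pairs went in opposite directions, 2 among those called higher and 2 among those called lower. In 8 of the 78 the normalized counts of the replicates of a group were more than 4-fold apart, some of them at levels near 0. YPL257W-B, singled out after its values were seen, was called higher by edgeR at an adjusted p of 1.04e-19. It had 22.9 and 5.02 normalized counts without 4sU and 1.63 and 613 with 4sU, so a single pulsed library carries its call. The calls were spread over all 16 chromosomes, with the highest share on chromosome VI, where 4 of 119 tested identifiers were called (3.36%). Consecutive numbers on one arm were found for 3 pairs of called identifiers, and each pair was called in the same direction. How many such pairs a random set of this size would hold was not computed.

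The 20 min libraries come from the same design, with their own controls. In the study's protocol the 60 min aliquots came from the remainder of the culture sampled at 20 min, so the times are not separate cultures. The 20 min values do not enter the 60 min fold changes, but they share the estimate of the spread that sets the calls. A fit to the 60 min libraries only called 238 genes, all 78 among them. At 20 min, in the fit to the total libraries of both times, 70 genes were called higher with 4sU (1.15%) and 29 lower (0.478%). Of the 41 genes called higher at 60 min, 22 were called higher at 20 min, which is 53.7% of the first list and 31.4% of the second. Of the 37 called lower, 15 were called lower at 20 min, 40.5% of the first list and 51.7% of the second. No gene was called in opposite directions at both times.

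The 20 min libraries can also be read without a threshold. Both pulsed libraries at 20 min lay above both controls in 33 of the 41 genes (80.5%), against 33.1% of all genes tested, and below them in 27 of the 37 (73.0%), against 4.56%. The median log2 fold change at 20 min was 1.48 for the 41 genes, -1.12 for the 37 genes and 0.36 over all genes tested. The median over all genes was thus above 0 at 20 min, and the 37 genes lay below it. YNL134C had a log2 fold change of 4.25 at 20 min and YLR460C of 4.44. YNR034W-A and YPR124W were also called at 20 min, with log2 fold changes of -2.23 and -1.75. Their differences between the times, -1.59 and -1.79, did not pass the test of the interaction (adjusted p = 0.626 and 0.309).

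**Figure D2:**
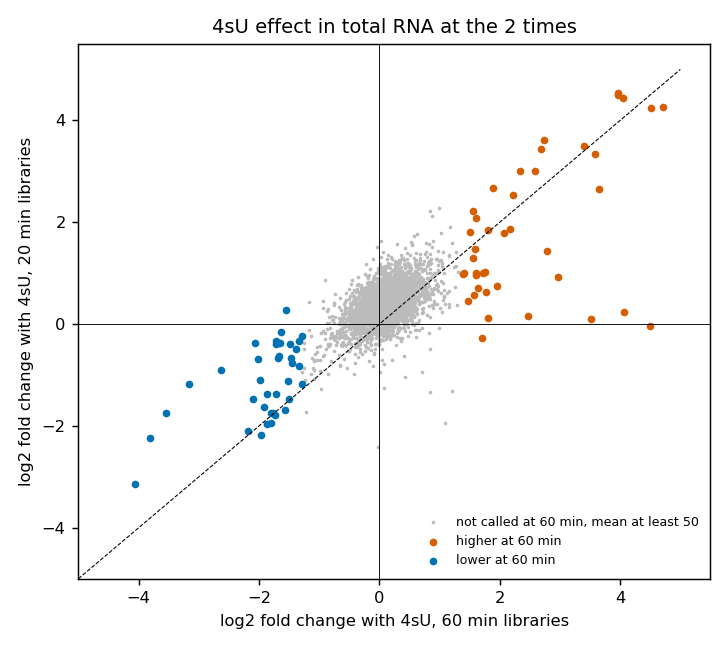
Log2 fold change with 4sU over without in the 20 min libraries (vertical axis) against the 60 min libraries (horizontal axis), one point per gene, with the dashed line marking equal values. Genes called higher at 60 min are orange, those called lower are blue and other genes with a mean of at least 50 are grey, and the called genes had the same sign at both times apart from 2 of the 41 and 1 of the 37.

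The test of the difference between the times called 12 genes (0.198% of those tested), and 173 had an unadjusted p under 0.05. Of the 12, 3 were among the 78 called at 60 min and 8 were called at 20 min. In 8 of them the normalized counts of the replicates of at least 1 group lay more than 4-fold apart. RDN5-1, a copy of the 5S ribosomal RNA gene that was singled out after its values were seen, is one of these, with 1844 normalized counts in replicate 1 without 4sU at 20 min and 7.37 in replicate 2. Its 60 min values were low throughout, 12.5 and 8.93 normalized counts without 4sU and 3.77 and 3.06 with 4sU. DESeq2 with S. pombe size factors called 1 gene for the interaction, which was none of the 12.

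The ribosomal DNA held 2 of the calls, among 11 features tested. Both were in the 3′ external transcribed spacer that is removed early in the maturation of the precursor. Counting copies separately, 7 of the 11 had an unadjusted p under 0.05. Over all genes tested 1.29% were called and 7.68% had such a p. ETS2-1 had 88.5 and 88.2 normalized counts without 4sU and 27.3 and 25.7 with 4sU. The 2 groups were well apart and their replicates close together. Its level was 3.34-fold lower with the pulse, at a log2 fold change of -1.73 ± 0.39 (SE) and an adjusted p of 0.00154. ETS2-2, the other listed copy, had 81.8 and 83.7 normalized counts without 4sU and 25.2 and 22.0 with 4sU with a log2 fold change of -1.79 ± 0.40 (SE) and an adjusted p of 0.000902. Reads that map to more than one place were counted, so both copies can hold the same reads and are one observation rather than 2.

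The spacer at the other end of the precursor had higher values with 4sU. ETS1-1, the 5′ external transcribed spacer, had 11654 and 11310 normalized counts without 4sU and 19744 and 24225 with 4sU. Both pulsed libraries were above both controls, by 1.91-fold in the means. The log2 fold change of 0.94 did not pass the test over all genes (95% confidence interval 0.17 to 1.70, adjusted p = 0.413). It did pass under 3 of the 13 alternatives, which were TMM scaling (adjusted p = 0.0200), edgeR's fit to the 60 min libraries only (0.00910) and DESeq2 with its own size factors (1.73e-05). ETS1-2 had 10543 and 10636 normalized counts without 4sU and 15879 and 22645 with 4sU (log2 fold change 0.86, adjusted p = 0.508). The same 3 alternatives called it (adjusted p = 0.0457, 0.0222 and 0.00114).

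At 20 min the spacers lay the same way. ETS2-1 had 148 and 109 normalized counts without 4sU and 45.7 and 28.9 with 4sU, and ETS2-2 148 and 113 against 43.0 and 24.98. Both were called, with log2 fold changes of -1.79 and -1.94. ETS1-1 had 15438 and 9764 normalized counts without 4sU and 37716 and 23630 with 4sU, a log2 fold change of 1.28 that missed the threshold (adjusted p = 0.0606). In unlabeled RNA at 60 min ETS1-1 had 21225 and 16878 normalized counts without 4sU and 564 and 789 with 4sU. ETS2-1 had 54.2 and 101 there without 4sU and 1.155 and 0.925 with 4sU. In labeled RNA with 4sU ETS1-1 had 131601 and 182214 normalized counts and ETS2-1 had 90.4 and 66.8.

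The call of ETS2-1 was lost when any of the 4 libraries was left out (adjusted p from 0.0544 to 0.170), and that of ETS2-2 without either pulsed library (0.0912 and 0.163), while the log2 fold change stayed between -1.91 and -1.69 in these fits. RDN37-1, the whole precursor, had 11689 and 36440 normalized counts without 4sU and 35990 and 7943 with 4sU. These replicates were further apart than the groups, and RDN37-2 also overlapped, with 16242 and 17819 against 19648 and 11034. The 5 tested copies of the 5S gene had lower mean values with 4sU and none was called. RDN5-1 passed with the replicate block (adjusted p = 0.000408), a fit whose block it shares with its 20 min library of 1844 normalized counts. RDN18, RDN25, RDN58, ITS1 and ITS2 are listed at 0 in all libraries.

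**Figure D3:**
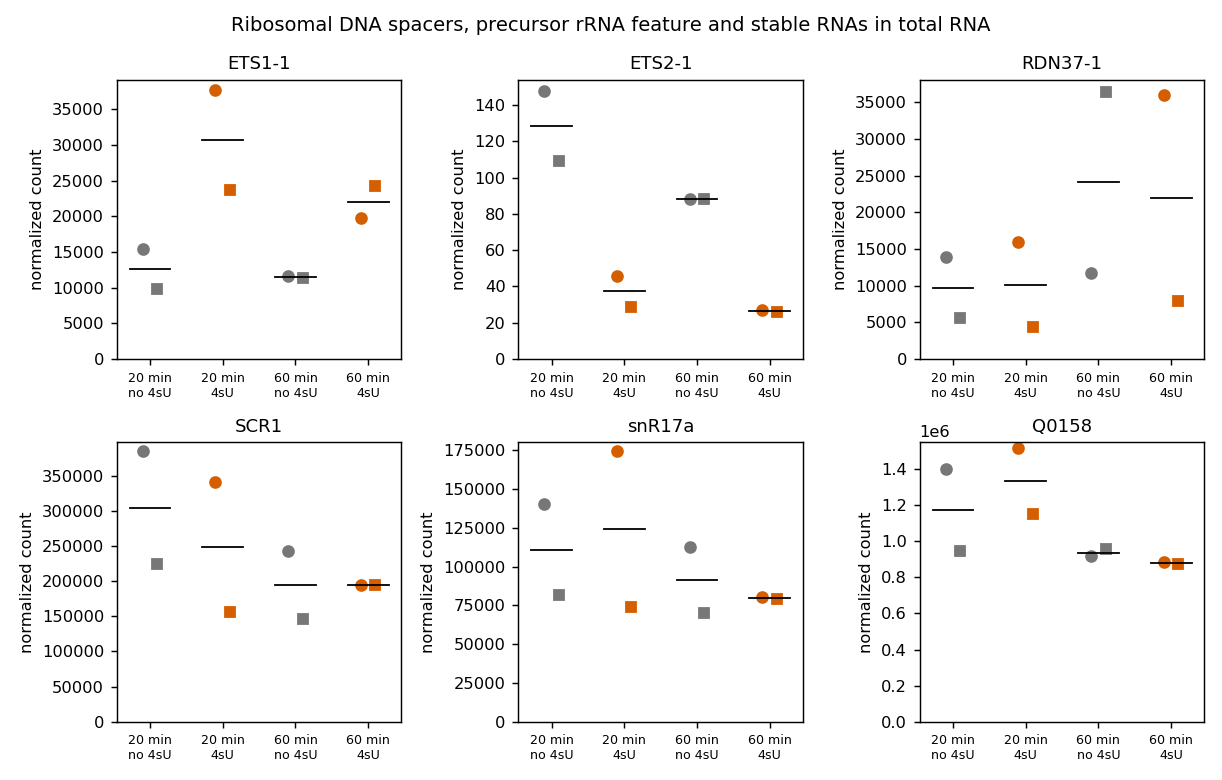
Normalized counts in total RNA (linear scale from 0) of ETS1-1, ETS2-1, RDN37-1, SCR1, snR17a and Q0158 at 20 and 60 min, without 4sU (grey) and with 4sU (orange), with circles for replicate 1, squares for replicate 2 and a line at the mean. At both times ETS2-1 was lower and ETS1-1 higher in both pulsed libraries than in both controls, while the groups overlapped for RDN37-1 and SCR1.

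Stable noncoding RNAs had estimates close to 0. SCR1, the RNA of the signal recognition particle, had 242854 and 146004 normalized counts without 4sU and 194840 and 195226 with 4sU (log2 fold change 0.00, 95% confidence interval -0.76 to 0.77). RPR1, the RNA of ribonuclease P, had a log2 fold change of -0.17, and NME1, the RNA of ribonuclease MRP, of -0.14. LSR1, the spliceosomal U2 RNA, had 121127 and 96105 normalized counts without 4sU and 103501 and 88211 with it. The intervals of these 3 reached from -0.95 to 0.61, so changes of that size would not have been detectable. edgeR called none of the 13 tested noncoding RNAs outside the snR, transfer and ribosomal classes, and 2 had an unadjusted p under 0.05. At 1.29% called over all genes, a count of 0 in a class of this size is near the background. None was called by DESeq2 with S. pombe size factors either, and 1 with its own size factors.

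The snR class holds the small nucleolar RNAs, which guide modification and cleavage of ribosomal RNA, and several spliceosomal RNAs. edgeR called none of its 70 tested members, and 3 had an unadjusted p under 0.05, against 1.29% called and 7.68% with such a p over all genes tested. DESeq2 called none with either set of size factors. The 40 members that averaged 50 or more normalized counts had a median log2 fold change of -0.09 and ran from -0.32 to 0.36. The most abundant, snR17a, which encodes the U3 RNA needed to process the 5′ end of the precursor, had 112401 and 70024 normalized counts without 4sU and 80172 and 78931 with 4sU. Its controls spanned the pulsed libraries.

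Other noncoding RNAs of lower level had estimates that did not pass the test. SRG1, a noncoding RNA made across the promoter of SER3, had 74.5 and 76.4 normalized counts without 4sU and 41.4 and 37.3 with 4sU. The groups were apart, and the log2 fold change of -0.93 had an adjusted p of 0.397. It passed by DESeq2 with its own size factors (adjusted p = 0.0472) and in edgeR's fit to the 60 min libraries only (0.0496). RUF5-1 had 15.5 and 10.04 normalized counts without 4sU and 34.2 and 21.4 with 4sU (log2 fold change 1.17, adjusted p = 0.398). ICR1, a noncoding RNA upstream of FLO11, had 14.7 and 14.5 without 4sU and 17.1 and 14.7 with 4sU.

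Transcripts of the mitochondrial genome, whose identifiers start with Q0, made up 36.1% to 41.9% of the raw counts of the 4 libraries. None of the 20 tested was called by edgeR or DESeq2, and 0 had an unadjusted p under 0.05 in edgeR. Over all genes tested edgeR called 1.29% and 7.68% had such a p, so 0 calls among 20 is near the background. The 13 that averaged 50 or more normalized counts had log2 fold changes from -0.15 to 0.13 with a median of -0.04. Q0158, the most abundant feature of all, had 919143 and 956110 normalized counts without 4sU and 884992 and 876691 with 4sU. The pulsed libraries were slightly lower, and the log2 fold change of -0.09 had a 95% confidence interval from -0.85 to 0.67. Transfer RNA genes were too thinly counted to be informative. The 50 nuclear ones tested had a median of 0.927 normalized counts in the controls. None of these or of the 22 mitochondrial ones was called by edgeR or DESeq2, which in classes of this size is again near the background. In edgeR 2 nuclear ones had an unadjusted p under 0.05, against 7.68% over all genes tested.

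**Figure D4:**
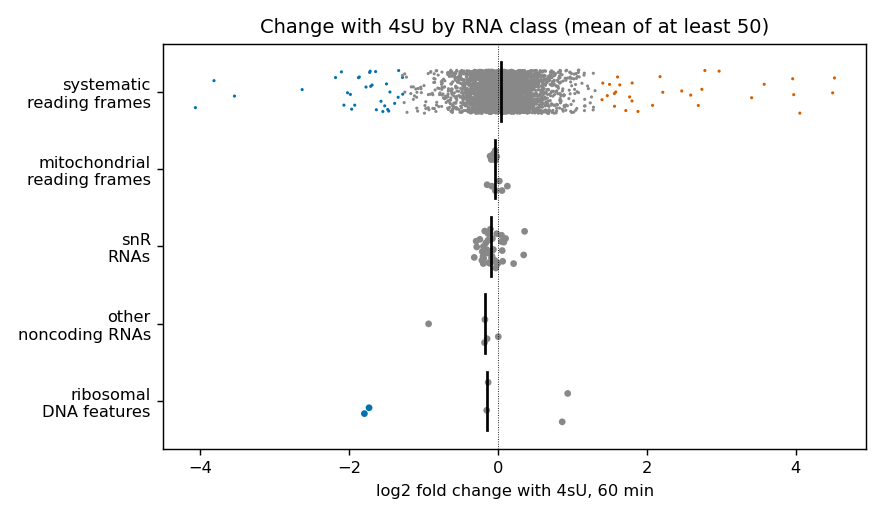
Log2 fold change in total RNA with 4sU over without at 60 min (horizontal axis) for features that averaged 50 or more normalized counts, by RNA class, one point per feature with a black bar at the class median. Called features are orange when higher and blue when lower, and outside the systematic reading frames the sole called features are both copies of ETS2.

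For 9 protein-coding genes the study itself pairs an identifier with a name, as examples in a measurement other than that of RNA. edgeR called none of them, and 1 had an unadjusted p under 0.05, with the same counts from DESeq2 scaled by S. pombe. With 1.29% called and 7.68% with such a p over all genes tested in edgeR, these counts are near the background. CYS4 (YGR155W), which encodes cystathionine beta-synthase, had 285 and 187 normalized counts without 4sU and 413 and 553 with 4sU. Both pulsed libraries were above both controls, by 2.05-fold in the means. The log2 fold change of 1.03 missed the threshold (SE 0.37, adjusted p = 0.219) and passed it under 4 of the 13 alternatives. These were the replicate block (adjusted p = 0.0323), TMM scaling (0.00376), edgeR's fit to the 60 min libraries only (0.00154) and DESeq2 with its own size factors (0.000113). RPS24A (YER074W), a protein of the small ribosomal subunit, had 813 and 483 normalized counts without 4sU and 883 and 828 with 4sU. LOC1 (YFR001W), a protein of ribosome assembly in the nucleus, had 302 and 431 normalized counts without 4sU and 349 and 377 with 4sU. NVJ1 (YHR195W), a protein of the junction between nucleus and vacuole, had 216 and 178 without 4sU and 140 and 148 with 4sU (log2 fold change -0.45, 95% confidence interval -1.17 to 0.27). The other 5 had log2 fold changes between -0.67 and 0.05.

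RNA made during the pulse was examined for the called genes as a description. The ratio of labeled to total RNA, both with 4sU, had a median of 9.02 over the 41 genes higher with 4sU, 6.63 over the 37 lower and 7.61 over all genes tested, on a scale in which only ratios between genes can be read. With the total RNA without 4sU as the denominator, these medians were 41.6, 2.08 and 8.01. Either total belongs to the contrast that chose the genes, so the group medians depend on that choice. For YNL134C it was 15.1, for YLR460C 9.05, for YPR124W 4.79 and for YNR034W-A 3.49. For ETS1-1 it was 7.14 and for ETS2-1 2.97, while the stable RNAs were far lower, at 0.423 for SCR1, 0.381 for snR17a and 0.324 for Q0158. The interquartile range over all genes tested was 5.59 to 11.96, so both identifiers that fell and ETS2-1 lay under it.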

How the data were processed

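The authors aligned paired-end reads with HISAT2 2.0.4 and assigned them to genes by strand with featureCounts, keeping reads that map to several places, and deposited raw counts for 7127 features. A deposited signal table holds the same counts divided by S. pombe reads over 2000000. Libraries had been depleted of ribosomal RNA. The raw counts were analysed with edgeR 4.0.16 (R 4.3.3), which fitted the 8 total libraries in 4 groups by quasi-likelihood with S. pombe totals as library sizes, and p-values were adjusted by Benjamini-Hochberg over 6069 features that had counts in at least 50% of the 24 libraries, with a threshold of 0.05. DESeq2 1.42.0 was an alternative. Replicates are labeled as separate samples, and the study calls them biological replicates. The p-values rest on a spread that the model shares across genes, so they do not measure each gene's own replicates alone. YPL257W-B, whose pulsed libraries lay far apart, had a standard error of 0.45, against a median of 0.38 over all genes tested. Replicate numbers were taken to pair samples because each culture was divided before 4sU was added, and the deviations of same-numbered libraries correlated at 0.212 at 60 min and 0.397 at 20 min over 3502 genes. Precision is limited by 2 libraries per group.

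The 4 identifiers were chosen by size among called genes that averaged 50 or more normalized counts and moved the same way in both pairs of libraries, from the 12 in each direction that the rule gave. The gene lists could not be matched to systematic identifiers beyond the RNA classes and single genes, and neither the galactose genes nor mating-type genes were checked. Members and lists were chosen with earlier results of these data known. Alternatives were TMM scaling, DESeq2, other sets of libraries, filters, the replicate block, leaving out each library and thinning of the deepest.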

Additional observations from a re-analysis of the deposited data

Results flagged for a closer look

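The effect of 4sU on total RNA differed between 60 and 20 min for 12 of 6069 genes in the test of the interaction (edgeR, adjusted p under 0.05). It was more positive at 60 min in 11 of them and more negative in 1. In 8 of the 12 the normalized counts of the replicates of at least 1 group lay more than 4-fold apart, and for RDN5-1 a single library without 4sU at 20 min, with 1844 normalized counts against 7.37 in its replicate, sets the value. What else moved with these differences was not tested.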

How the results depend on the processing

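Against 78 calls at 60 min (41 higher, 37 lower), 228 were made with TMM scaling (107 and 121), 253 by DESeq2 with its own size factors (103 and 150), 238 from a fit to the 60 min libraries only (148 and 90), 127 with the replicate block (73 and 54) and 12 with all 24 libraries in one fit (10 and 2), where the median standard error was 0.66 in place of 0.38. Leaving out 1 library gave 28 to 37 calls, 20 to 26 higher and 8 to 17 lower. DESeq2 with S. pombe size factors called 78 genes, of which 64 were shared. No gene was called in opposite directions in any of these fits, and 11 of the 78 were called in all of them. The interaction had 12 calls, and 7 with TMM scaling, 23 and 1 by DESeq2 with its own and with S. pombe size factors, 0 with all 24 libraries and 4 to 7 when 1 library was left out. The calls at 20 min ran from 9 to 198 higher and from 0 to 132 lower. The median log2 fold change over all genes stayed between -0.04 and 0.21. The replicate block added calls of CYS4 and RDN5-1 and took none from the other features named. TMM scaling, DESeq2 with its own size factors and the fit to the 60 min libraries only each called CYS4 and both copies of ETS1. ETS2 lost its call with all 24 libraries. With a library left out, the lone library of its group is assumed to vary like the other groups. The cause of these shifts was not tested.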
